A study of Arabidopsis thaliana with 12 samples.

Results

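The genes rpoB, rpoC1 and rpoC2 encode the β, β′ and β″ core subunits of the plastid-encoded RNA polymerase and lie side by side on the plastid chromosome. The rule that chose them uses role and position and no measured value, although earlier results of these data were known when it was written. They are 3 of the 13356 genes that could be named on the array and 3 of the 69 plastid-encoded genes among them. Whole seedlings of Arabidopsis thaliana that are deficient in nitric oxide (NO) were compared with wild-type Col-0 on 12 Affymetrix ATH1 arrays, 3 biological replicates per genotype. The mutant nia1nia2noa1-2 carries the lesions of the nitrate reductase double mutant nia1nia2 together with noa1-2, and nia1nia2 and noa1-2 were each measured on their own. All 4 genotypes were grown for 15 days on MS medium with 1% sucrose under 16 h of light and 8 h of darkness, were harvested 5 h after dawn, and are labelled as past the transition to flowering. Replicates carry the numbers 1 to 3, except in nia1nia2, where they carry 2 to 4.

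The plastid-encoded polymerase is a bacterial-type enzyme whose α subunit comes from rpoA and which needs sigma factors imported from the cytosol to find its promoters. It reads most plastid genes of photosynthesis, whereas rpoB, rpoC1 and rpoC2 are cotranscribed from a promoter of the nucleus-encoded, phage-type polymerase, so that one transcription system of the plastid makes the message for the other. NOA1, the gene affected in noa1-2, encodes a plastid GTPase related to bacterial YqeH, a factor of ribosome assembly, and NIA1 and NIA2 encode nitrate reductases.

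Levels are given as log2 of the intensity that the authors deposited, so that a difference of 1 is a doubling, and a gene counts as higher or lower when its p-value from limma, adjusted by Benjamini-Hochberg over 7034 genes, was under 0.05. These 7034 genes had a mean log2 level of 6 or more in 1 genotype or more, and the means of all 3 polymerase genes were above 6 in every genotype. Because each gene has its own probe set, levels of different genes are not compared as such. Where the polymerase genes are set against other plastid-encoded genes, only the change of that difference between genotypes is read. NIA1, NIA2 and NOA1 are not named in the probe table used here and could not serve as a check of the labels. Of the markers chosen for the tissue, 1 of 6 for leaf, 2 of 5 for root and none of 5 for flower are named. The leaf gene RCA had genotype means of 13.45 to 13.86 and the root gene PYK10 had means of 12.67 to 12.86. The root-hair gene EXPA7 stayed between 4.90 and 5.69. The nia1nia2 arrays spread more than the others, with a median SD per gene of 0.26 against 0.11 to 0.12 in the other genotypes.

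rpoB, the gene of the β subunit, was higher in nia1nia2noa1-2 and in noa1-2 than in Col-0. Its log2 level was 7.03, 7.11 and 7.23 on the nia1nia2noa1-2 arrays. It was 5.66, 6.36 and 7.54 on the nia1nia2 arrays (replicates 2, 3 and 4). The noa1-2 arrays gave 7.97, 7.69 and 7.60, and the Col-0 arrays gave 5.90, 6.36 and 6.09. Every nia1nia2noa1-2 and noa1-2 array lay above every Col-0 array, while the nia1nia2 arrays reached from below the lowest Col-0 value to above the highest nia1nia2noa1-2 value. Since 1 Col-0 array and 1 nia1nia2 array lay under the level of 6 that the study takes as the border of noise and signal, the size of these differences is not exact. Full separation of 3 arrays from 3, here and below, cannot reach a p under 0.1 in an exact permutation. The share of all genes that show it was not counted.

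rpoC1, the gene of the β′ subunit, which holds the catalytic centre together with β, varied least between the arrays of noa1-2. Its level was 11.37, 11.47 and 11.64 in nia1nia2noa1-2. In nia1nia2 it was 9.82, 10.89 and 10.36. In noa1-2 it was 11.78, 11.84 and 11.76, against 10.22, 10.22 and 10.63 in Col-0. The noa1-2 arrays stood highest without touching another genotype, the nia1nia2noa1-2 arrays came next, and the nia1nia2 arrays lay on both sides of the Col-0 arrays.

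rpoC2, the gene of the β″ subunit, which in most bacteria is part of a longer β′ protein, followed the same order. It was measured at 8.95, 9.13 and 9.48 in nia1nia2noa1-2. It was measured at 7.68, 7.99 and 8.84 in nia1nia2. The noa1-2 arrays gave 9.79, 9.39 and 9.10, and the Col-0 arrays gave 7.60, 7.95 and 7.97. The nia1nia2noa1-2 and noa1-2 arrays overlapped each other and lay above all Col-0 and nia1nia2 arrays.

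**Figure D1:**
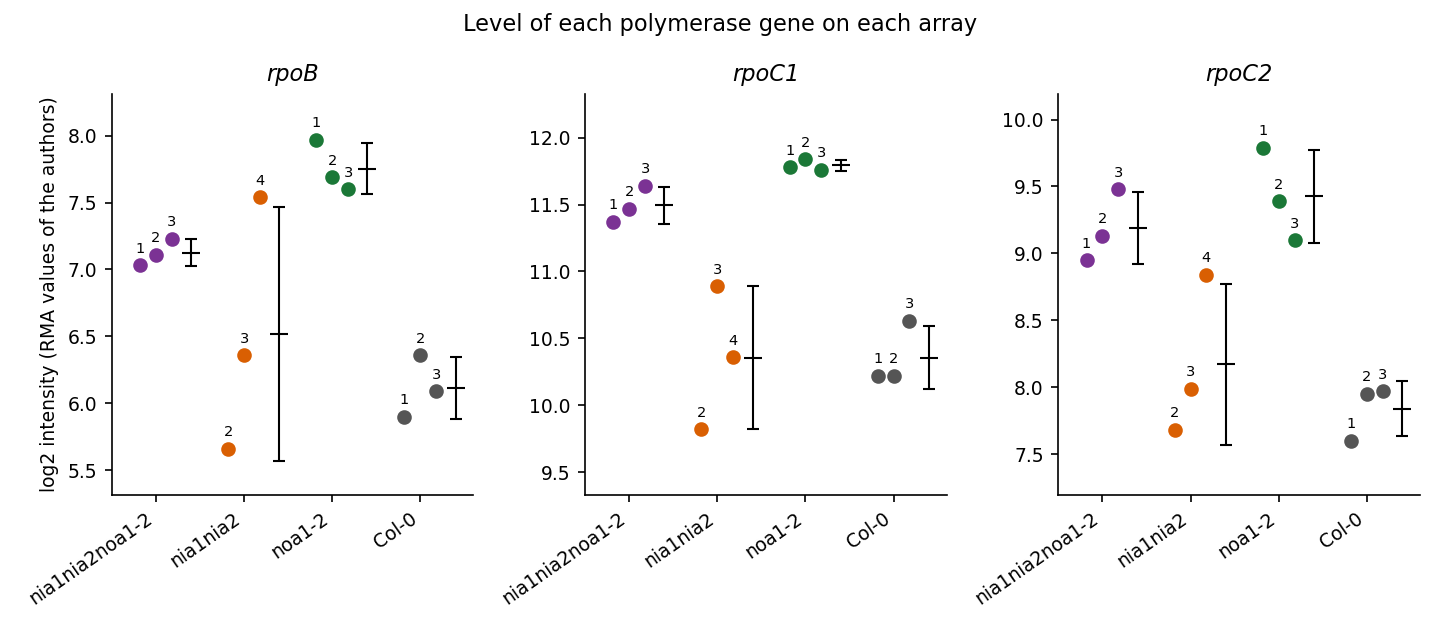
Log2 intensity of rpoB, rpoC1 and rpoC2 (vertical axes, each spanning the same width) on each of 12 arrays; points are arrays with their replicate number, bars the mean ± SD of 3 arrays. All nia1nia2noa1-2 and noa1-2 points lie above all Col-0 points in each panel, and nia1nia2 replicate 4 stands high for rpoB (7.54) and rpoC2 (8.84) but not for rpoC1 (10.36).

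The first comparison asked whether these transcripts stood at another level in the combined mutant than in the wild type. In nia1nia2noa1-2 all 3 genes rose, where 10.6% of all genes tested were called higher. rpoB averaged 7.12 ± 0.10 in nia1nia2noa1-2 and 6.12 ± 0.23 in Col-0 (SD, n = 3 each), a difference of 1.01 with a standard error of 0.33 (limma, adjusted p = 0.0445). rpoC1 averaged 11.49 ± 0.14 in nia1nia2noa1-2 and 10.36 ± 0.24 in Col-0, a difference of 1.14 with a standard error of 0.21 (limma, adjusted p = 0.00217). rpoC2 averaged 9.19 ± 0.27 in nia1nia2noa1-2 and 7.84 ± 0.21 in Col-0, a difference of 1.35 with a standard error of 0.26 (limma, adjusted p = 0.00287). On the linear scale these were rises of 2.01-fold, 2.20-fold and 2.54-fold. The call of rpoB was lost in 9 of the 12 fits that left out 1 array, namely each array of nia1nia2noa1-2, noa1-2 and Col-0, with differences of 0.90 to 1.13 and adjusted p up to 0.141, while rpoC1 and rpoC2 kept theirs in all 12. The nia1nia2 arrays, where the SD of rpoB was 0.95, enter this test only through the pooled spread. With limma on the 6 arrays compared alone, rpoB passed (standard error 0.12, adjusted p = 0.000258).

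In noa1-2, where NOA1 alone was affected, all 3 genes rose as well, where 5.00% of all genes tested were called higher. rpoB averaged 7.75 ± 0.19 in noa1-2, 1.64 above Col-0 with a standard error of 0.33 (limma, adjusted p = 0.00852). rpoC1 averaged 11.79 ± 0.04 in noa1-2, 1.44 above Col-0 with a standard error of 0.21 (limma, adjusted p = 0.00123). rpoC2 averaged 9.43 ± 0.35 in noa1-2, 1.59 above Col-0 with a standard error of 0.26 (limma, adjusted p = 0.00266). The rises were 3.11-fold, 2.71-fold and 3.00-fold, and each kept its call in all 24 alternative analyses. Ranked by difference among the 7034 genes tested, rpoB was in place 13, rpoC2 in place 15 and rpoC1 in place 21 from the top.

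In nia1nia2, which carries the nitrate reductase lesions without noa1-2, none of the 3 genes passed the test, where 16.4% of all genes tested were called higher. At an unadjusted p under 0.05 limma called 0 of the 3, and so did the per-pair test of the study's methods. rpoB averaged 6.52 ± 0.95 in nia1nia2, a difference from Col-0 of 0.40 (95% interval -0.31 to 1.12, limma adjusted p = 0.346, n = 3). rpoC1 averaged 10.36 ± 0.54 in nia1nia2, the same mean as in Col-0, with a 95% interval of the difference of -0.46 to 0.46. rpoC2 averaged 8.17 ± 0.60 in nia1nia2, a difference of 0.33 (95% interval -0.23 to 0.89, limma adjusted p = 0.328). The interval for rpoB still holds a doubling, and those for rpoC1 and rpoC2 end below it.

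The means of nia1nia2 for rpoB and rpoC2 depended on single arrays. Replicate 4 lay 1.02 above the nia1nia2 mean for rpoB and 0.67 above it for rpoC2, but 0.00 from it for rpoC1. On the same array 15 of the 66 other plastid-encoded genes lay more than 0.5 above their nia1nia2 mean and 11 lay more than 0.5 below it. Without replicate 4 the differences from Col-0 were -0.11 for rpoB, 0.00 for rpoC1 and -0.005 for rpoC2. Without replicate 2, the array with the lowest value of each of the 3 genes in that genotype, the difference of rpoB was 0.83 and passed the test (limma, adjusted p = 0.0276), and that of rpoC2 was 0.57 without passing. The SD of rpoB in nia1nia2, 0.95, stood beside a median of 0.38 over the other plastid-encoded genes and 0.26 over all genes tested on the same arrays.

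The mutants were then set against each other. In nia1nia2 all 3 genes were lower than in noa1-2, by 1.23 for rpoB (limma, adjusted p = 0.0087), 1.44 for rpoC1 (adjusted p = 0.000138) and 1.26 for rpoC2 (adjusted p = 0.00177), where 43.0% of all genes tested differed in either direction. Of the 69 plastid-encoded genes, rpoC1 had the lowest such difference. RCA, the only leaf marker named, was lower in nia1nia2 too. The falls were 0.37 against noa1-2 (limma, adjusted p = 0.0114) and 0.40 against Col-0 (adjusted p = 0.00767). The part of RCA in the differences of the polymerase genes was not tested. The per-pair test of the methods called 0 of the 3 after adjustment over all genes and 2 before it.

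Adding noa1-2 to the nia1nia2 background went with higher rpoC1 and rpoC2, where 15.2% of all genes tested differed in either direction. rpoC1 was 1.14 higher in nia1nia2noa1-2 than in nia1nia2 (standard error 0.21, limma, adjusted p = 0.00517), and rpoC2 was 1.02 higher (standard error 0.26, limma, adjusted p = 0.0216). rpoB differed by 0.60 (95% interval -0.11 to 1.32, limma, adjusted p = 0.235), and its groups overlapped. Without nia1nia2 replicate 4 the difference of rpoB was 1.11 and passed the test (limma, adjusted p = 0.00189). With limma on only the 6 arrays compared, where the wide nia1nia2 spread is not shared with other genotypes, none of the 3 passed (adjusted p = 0.419 for rpoB, 0.0633 for rpoC1 and 0.0974 for rpoC2), and the call of rpoC2 was also lost without nia1nia2 replicate 2 (difference 0.77) and without nia1nia2noa1-2 replicate 2 (1.04) or replicate 3 (0.87).

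Adding nia1nia2 to the noa1-2 background gave differences below 0 for all 3 genes, none of which passed the test, where 18.6% of all genes tested differed in either direction. The difference of nia1nia2noa1-2 from noa1-2 was -0.63 for rpoB (95% interval -1.34 to 0.08, limma, adjusted p = 0.221). It was -0.30 for rpoC1 (95% interval -0.76 to 0.16, limma, adjusted p = 0.38). It was -0.24 for rpoC2 (95% interval -0.80 to 0.32, limma, adjusted p = 0.589). At an unadjusted p under 0.05 limma called 0 of the 3. This comparison holds no nia1nia2 array, and when limma was run on its 6 arrays alone rpoB and rpoC1 passed (adjusted p = 0.00233 and 0.038) and rpoC2 did not (0.344). Without nia1nia2 replicate 4, rpoB passed too (adjusted p = 0.0154). For rpoB and rpoC1 the highest nia1nia2noa1-2 array lay 0.37 and 0.12 below the lowest noa1-2 array.

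The order of the genotype means was therefore noa1-2, nia1nia2noa1-2, nia1nia2 and Col-0 for rpoB and rpoC2, and the same for rpoC1 with nia1nia2 and Col-0 level. Between neighbours in that order, the fit of all arrays separated only nia1nia2noa1-2 from nia1nia2, and only for rpoC1 and rpoC2. That fit pools the spread of all genotypes, which was widest in nia1nia2 for each of the 3 genes. With limma on only the arrays of the genotypes compared, nia1nia2noa1-2 and nia1nia2 were not separated for any of the 3. In that analysis noa1-2 and nia1nia2noa1-2 were separated for rpoB and rpoC1, so which neighbours separate depends on the fit. Additivity was tested by taking both single changes from that of the combined mutant, which left -1.03 for rpoB (95% interval -2.04 to -0.02, limma, adjusted p = 0.205). It was -0.30 for rpoC1 (95% interval -0.94 to 0.34) and -0.57 for rpoC2 (95% interval -1.37 to 0.23). None of the 3 passed after adjustment and 1, rpoB, had an unadjusted p under 0.05, where 3.47% of all genes tested passed after adjustment. Without nia1nia2 replicate 2 the departure of rpoB was -1.46 and passed (limma, adjusted p = 0.0419). The 3 mutants were set against the same 3 Col-0 arrays, and every mutant array enters several of these comparisons.

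rpoA, the gene of the α subunit, completes the core enzyme but lies elsewhere on the plastid chromosome, among ribosomal protein genes. Its level was 12.49, 12.48 and 12.49 in nia1nia2noa1-2, and 12.43, 12.86 and 11.56 in nia1nia2. It was 13.10, 13.10 and 12.88 in noa1-2, against 12.14, 12.17 and 12.07 in Col-0. It rose in noa1-2 by 0.90 (standard error 0.23, limma, adjusted p = 0.0295). In nia1nia2noa1-2 it differed from Col-0 by 0.36 (95% interval -0.14 to 0.86, limma, adjusted p = 0.297), although its 3 arrays lay above those of Col-0. The fit pools the spread of all genotypes. The SD of rpoA was 0.006 in nia1nia2noa1-2 and 0.05 in Col-0, but 0.66 in nia1nia2. On nia1nia2 replicate 4, where rpoB and rpoC2 were at their highest in that genotype, rpoA was at its lowest. Whether rpoA differs in its response from the other 3 core genes was not tested.

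Over the 12 arrays rpoB and rpoC2 correlated at r = 0.94, rpoC1 and rpoC2 at 0.88, and rpoB and rpoC1 at 0.81. After each genotype mean was taken off, rpoB and rpoC2 still moved together (r = 0.90), whereas rpoC1 followed rpoB and rpoC2 at 0.33 and 0.32. The same within-genotype values for rpoA were -0.67 with rpoB, 0.26 with rpoC1 and -0.57 with rpoC2. All these within-genotype values rest mostly on the 3 nia1nia2 arrays, where each gene spread most. The SD in nia1nia2 was 0.95 for rpoB, 0.54 for rpoC1, 0.60 for rpoC2 and 0.66 for rpoA. In the other genotypes it was at most 0.23, 0.24, 0.35 and 0.13 in the same order of genes. Without the nia1nia2 arrays, but with the genotype means left in, the 3 genes correlated pairwise at 0.94 to 0.96. On those arrays rpoA correlated with rpoB at 0.95, with rpoC1 at 0.87 and with rpoC2 at 0.85. These correlations describe arrays that share genotypes, and no p is given for them.

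Along the plastid chromosome the 3 genes are followed on the same strand by rps2, the gene of a protein of the small ribosomal subunit, and then by atpI, atpH, atpF and atpA, genes of the plastid ATP synthase. rps2 was at 9.54, 9.61 and 9.57 in nia1nia2noa1-2, and at 7.19, 8.28 and 9.43 in nia1nia2. It was at 9.76, 9.54 and 9.65 in noa1-2, against 8.28, 8.43 and 8.74 in Col-0. These arrays were arranged like those of rpoC2, with nia1nia2 replicate 4 near the nia1nia2noa1-2 level, but the differences from Col-0 of 1.09 in nia1nia2noa1-2 and 1.17 in noa1-2 did not pass (standard error 0.38 for each, limma, adjusted p = 0.0541 and 0.0745). The SD of rps2 was 0.04 in nia1nia2noa1-2, 0.11 in noa1-2 and 0.23 in Col-0, but 1.12 in nia1nia2, and the fit pools these spreads. In nia1nia2 the difference of rps2 was -0.18.

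The ATP synthase genes beyond rps2 did not all follow that pattern. atpH, atpF and atpA rose in nia1nia2noa1-2 by 0.59, 0.77 and 0.44, and in noa1-2 by 0.88, 0.91 and 0.61. atpH and atpA rose in nia1nia2 as well, by 0.92 and 0.54. atpI, the first of the 4, rose by 1.00 in nia1nia2 (limma, adjusted p = 0.00609), whereas its difference from Col-0 was -0.31 in nia1nia2noa1-2 and 0.57 in noa1-2, neither of which passed. atpI lay near the floor of 6, with means of 5.93 in nia1nia2noa1-2 and 6.24 in Col-0, so the size of its differences is not exact. Its nia1nia2 arrays were at 6.71, 7.06 and 7.94, the last being replicate 4. The departure from additivity was -1.88 for atpI (limma, adjusted p = 0.0131) and -1.21 for atpH (adjusted p = 0.0235). On the other side of rpoB, petN and psbM, genes of small subunits of the cytochrome b6f complex and of photosystem II, gave differences between -0.17 and 0.64 in the 3 mutants, none of which passed.

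**Figure D2:**
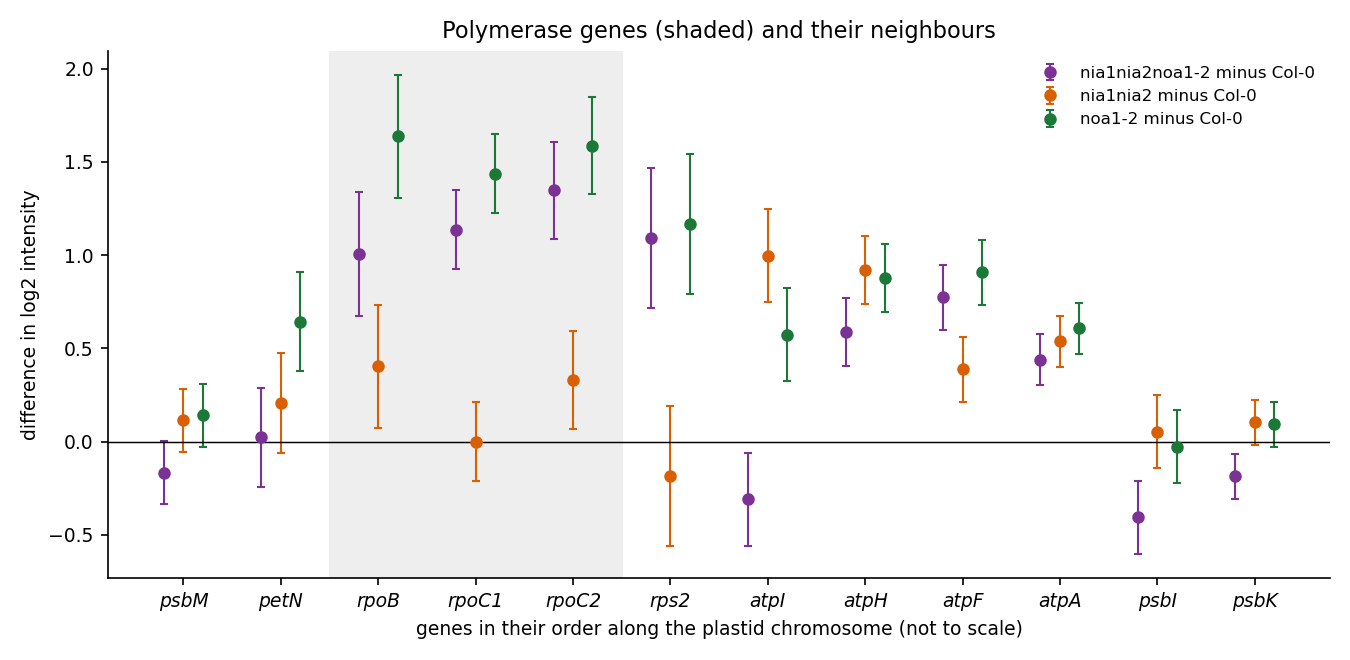
Difference in log2 intensity from Col-0 (vertical axis) of 12 genes in their order along the plastid chromosome (horizontal axis, not to scale), for nia1nia2noa1-2, nia1nia2 and noa1-2; points are limma estimates from 3 arrays per genotype and bars their standard errors. rpoB, rpoC1 and rpoC2 (shaded) lie between 1.01 and 1.64 in nia1nia2noa1-2 and noa1-2 and between 0.00 and 0.40 in nia1nia2.

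Other plastid genes known to be read by the nucleus-encoded polymerase were available for 2 of 4 names. accD, which encodes a subunit of the plastid acetyl-CoA carboxylase, was at 9.57, 9.44 and 9.65 in nia1nia2noa1-2, and at 8.56, 8.83 and 9.43 in nia1nia2. It was at 9.84, 9.70 and 9.52 in noa1-2, against 8.77, 8.79 and 8.76 in Col-0. It rose by 0.78 in nia1nia2noa1-2 and by 0.91 in noa1-2 (standard error 0.18 for each, limma, adjusted p = 0.0079 and 0.00694), while its difference in nia1nia2 was 0.17 (adjusted p = 0.474). clpP, which encodes a subunit of the plastid Clp protease, rose in all 3 mutants, by 0.70 (nia1nia2noa1-2), 0.49 (nia1nia2 alone) and 0.89 (noa1-2 alone). Of the nuclear genes that act on this system, none of 6 sigma factors and none of 14 proteins that associate with the polymerase are named in the probe table. Of a list of 3 nucleus-encoded organelle polymerases it names AT5G15700, whose genotype means were 6.28 in nia1nia2noa1-2, 6.33 in nia1nia2, 6.16 in noa1-2 and 5.99 in Col-0. It lay at the floor of 6 and entered the test through the mutants, so no call is given.

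CRR22 encodes a pentatricopeptide repeat protein that edits plastid transcripts, rpoB among them, and is 1 of 2 named genes in a list of 6 editing factors of rpo transcripts. Its level was 5.43, 5.85 and 5.53 in nia1nia2noa1-2, and 5.04, 5.57 and 5.44 in nia1nia2. It was 6.52, 6.38 and 6.27 in noa1-2, against 5.91, 5.84 and 5.98 in Col-0. The noa1-2 arrays stood highest. Only the noa1-2 mean, 6.39, was above 6, so that CRR22 entered the test through the genotype where it was highest, and only its levels are given, without a call. The other named factor, AT3G22690, had no genotype mean above 4.27 and was not tested.

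Set against the plastid-encoded genes as a whole, the 3 polymerase genes lay near the top in nia1nia2noa1-2 and noa1-2. Of the 66 others, 13 were higher and 1 was lower in nia1nia2noa1-2 (median difference 0.15), 13 were higher and 3 were lower in nia1nia2 (median 0.14), and 24 were higher and 0 were lower in noa1-2 (median 0.53). The shares called higher were 19.7%, 19.7% and 36.4% in that order of mutants, beside 10.6%, 16.4% and 5.00% over all genes tested. Over all genes 11.3%, 26.6% and 4.08% were called lower. The median over all genes tested was -0.03, -0.10 and -0.03 in the same order of mutants. By difference from Col-0 among the 69, rpoC2, rpoC1 and rpoB took places 2, 3 and 6 from the top in nia1nia2noa1-2. In noa1-2 rpoB, rpoC2 and rpoC1 took places 3, 4 and 7, and in nia1nia2 they took places 18, 24 and 46. A change in the number of plastids or cells and a change in the RNA of each cannot be told apart in RNA from whole seedlings.

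Plastid genes of photosynthesis, the main templates of the plastid-encoded polymerase, were mostly not called. Of 45 tested, 7 were higher and 1 was lower in nia1nia2noa1-2, 9 were higher and 3 were lower in nia1nia2, and 13 were higher and 0 were lower in noa1-2. The share called higher was 15.6% in nia1nia2noa1-2 beside 10.6% over all genes tested, 20% in nia1nia2, near the 16.4% over all genes, and 28.9% in noa1-2 beside 5.00%. Their median differences were 0.09, 0.12 and 0.43 in that order of mutants. The largest was that of rbcL, the gene of the large Rubisco subunit, which rose in nia1nia2noa1-2 by 1.88, in nia1nia2 alone by 1.83 and in noa1-2 alone by 2.16. The next largest were ycf4 (0.80) in nia1nia2noa1-2, psbN (1.05) in nia1nia2 and psaC (1.11) in noa1-2, all called. The photosystem I gene psaJ fell by 0.70 in nia1nia2noa1-2 and by 0.52 in nia1nia2, and psbE of photosystem II fell by 0.66 in nia1nia2. psaJ was lowest in noa1-2 too, at -0.25 without passing, and the values next to the bottom were -0.52 for psbJ in nia1nia2noa1-2 and -0.15 for psaB in noa1-2.

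Of 15 plastid-encoded ribosomal protein genes tested, 3 were higher in nia1nia2noa1-2, 3 in nia1nia2 and 7 in noa1-2, and 0 were lower, with median differences of 0.39, 0.26 and 0.90. The shares called higher were 20%, 20% and 46.7%, of which that in nia1nia2 was near the 16.4% over all genes tested. rps16 led them in every mutant, rising in nia1nia2noa1-2 by 1.11, in nia1nia2 alone by 0.94 and in noa1-2 alone by 1.84, and rpl14 was next in nia1nia2 (0.64) and noa1-2 (1.59). The smallest differences were -0.35 for rpl32 and -0.34 for rps18 in nia1nia2noa1-2, -0.47 for rps3 and -0.38 for rpl22 in nia1nia2, and 0.16 for rpl32 and 0.38 for rps18 in noa1-2, none of which passed. Of 16 mitochondrion-encoded genes named, 6 reached the floor and were tested. Of these 6, 2 were higher in nia1nia2noa1-2, 4 in nia1nia2 and 0 in noa1-2, and 0 were lower. The shares called higher were 33.3%, 66.7% and 0%, beside 10.6%, 16.4% and 5.00% over all genes tested. Among the 6, ccb382 had the largest difference in each mutant, at 1.36, 1.48 and 0.61, with nad4 next in nia1nia2noa1-2 and noa1-2 (0.56 and 0.49) and nad2 in nia1nia2 (1.34). nad2 was lowest in nia1nia2noa1-2 and noa1-2 (-0.47 and -0.15), cox1 next (0.04 and 0.07), and in nia1nia2 the lowest were cox1 (0.39) and ccb452 (0.40).

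**Figure D3:**
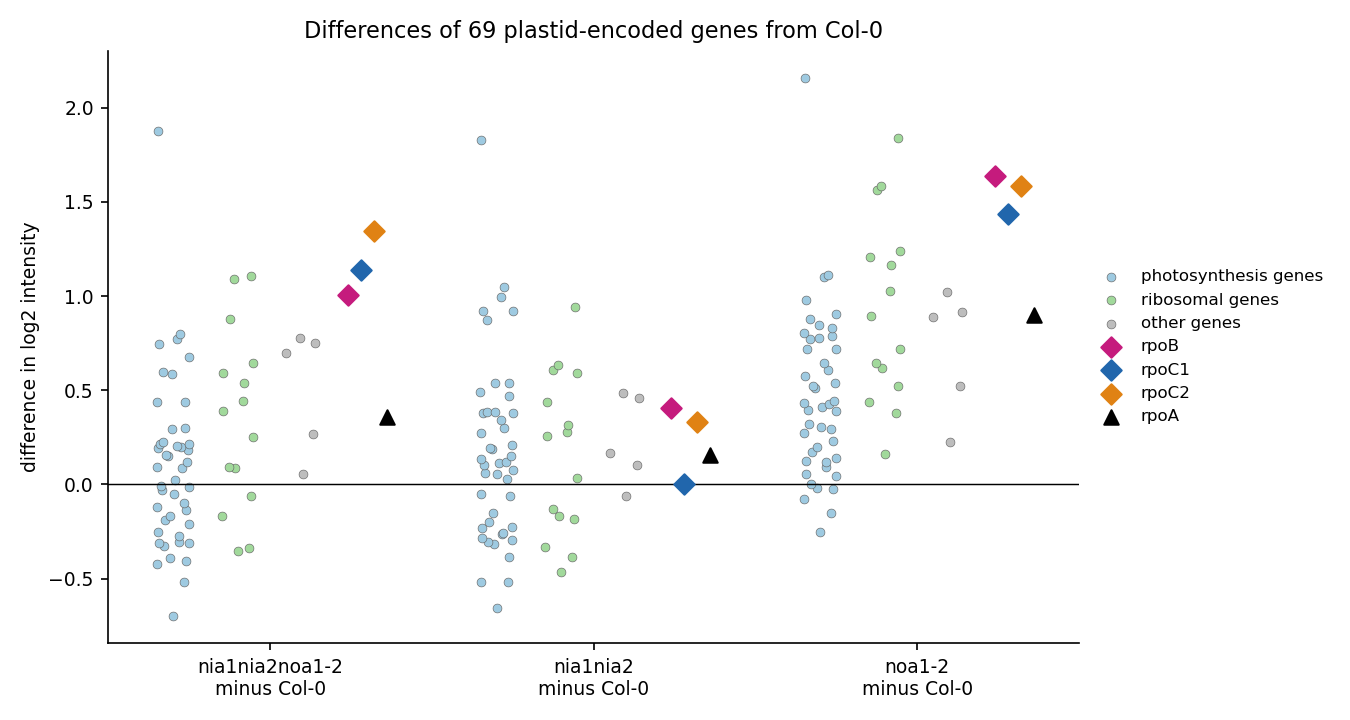
Difference in log2 intensity from Col-0 (vertical axis) of 69 plastid-encoded genes in nia1nia2noa1-2, nia1nia2 and noa1-2, each point 1 gene (limma estimate from 3 arrays per genotype); circles are genes of photosynthesis, ribosomal proteins and others, diamonds rpoB, rpoC1 and rpoC2, triangles rpoA. The diamonds lie at 1.01 to 1.35 in nia1nia2noa1-2 and 1.44 to 1.64 in noa1-2, and at 0.00 to 0.40 in nia1nia2.

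To take a common shift of plastid transcripts into account, the mean of the 3 polymerase genes on each array was set against the median of the 66 other plastid-encoded genes on that array. The difference between them was -1.98, -1.59 and -1.72 in nia1nia2noa1-2, and -3.08, -2.55 and -1.66 in nia1nia2. It was -1.58, -1.68 and -1.84 in noa1-2, against -2.62, -2.47 and -2.62 in Col-0. Every array of nia1nia2noa1-2 and noa1-2 lay above every Col-0 array also on this relative scale. The mean exceeded that of Col-0 by 0.81 in nia1nia2noa1-2 and by 0.87 in noa1-2, and it differed by 0.14 in nia1nia2. Without nia1nia2 replicate 4 its value in nia1nia2 was -0.24. For single genes the relative changes were 0.65 to 0.99 in nia1nia2noa1-2 and 0.75 to 0.95 in noa1-2.

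**Figure D4:**
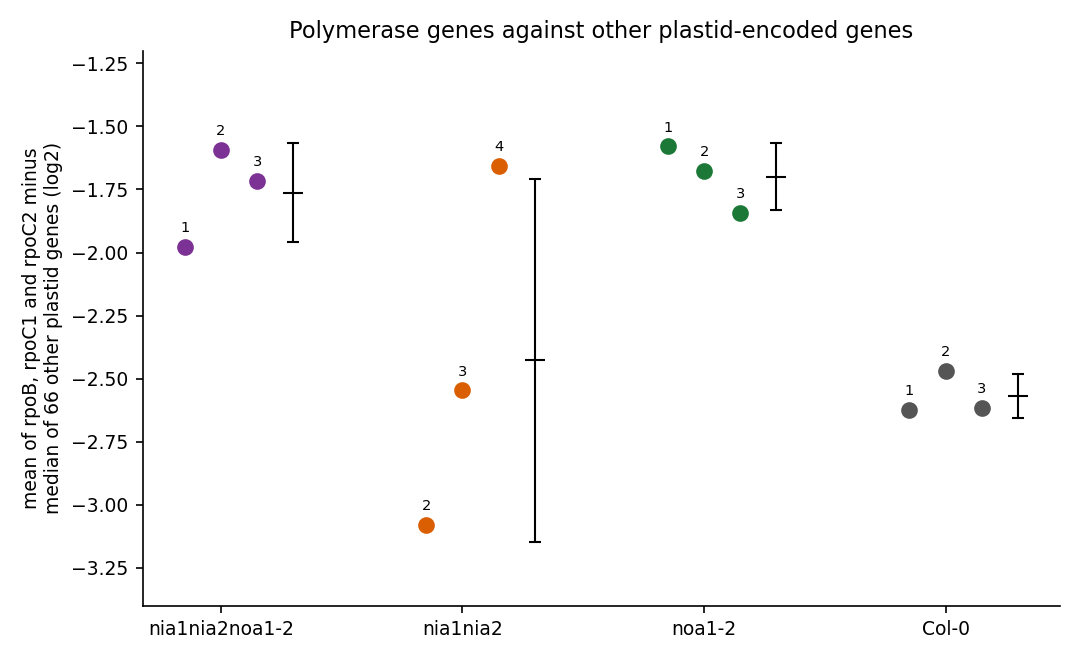
Mean log2 intensity of rpoB, rpoC1 and rpoC2 minus the median of 66 other plastid-encoded genes (vertical axis) on each of 12 arrays by genotype; points are arrays with their replicate number, bars the mean ± SD of 3 arrays. The nia1nia2noa1-2 and noa1-2 arrays lie between -1.98 and -1.58, the Col-0 arrays between -2.62 and -2.47, and the nia1nia2 arrays spread from -3.08 to -1.66.

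The genes whose levels were most like the mean of the 3 polymerase genes were found by Pearson's correlation over the 12 arrays, among all other genes tested. accD came first with r = 0.98, and it was the only plastid-encoded gene among the first 10. The other 9 were the nuclear genes AT3G61100 (r = 0.97), AT3G10530 and AT4G25740 (0.96 each), AT5G39840 (0.96), AT5G64816 and AT1G06560 (0.95 each), and AT2G40290, AT2G36885 and AT4G26600 (0.94 each). Of these, AT2G36885, which is annotated to the chloroplast, had the largest differences from Col-0, 1.75 in nia1nia2noa1-2, 0.67 in nia1nia2 and 2.30 in noa1-2. AT4G26600, annotated as a methyltransferase of ribosomal RNA processing in the nucleolus, had differences of 0.84, -0.01 and 1.11 in the same order. Among the 100 most alike, 8 were plastid-encoded, where 0.939% of the genes ranked are. The arrays share 4 genotype means, so any gene that follows the order of the genotypes correlates in this way.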

How the data were processed

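RNA of whole seedlings from 12 samples was hybridized to ATH1 arrays. The authors ran RMA on the raw files, which corrects background and normalizes across arrays, using a custom chip definition file according to the methods, and limma is named in the labels without a version. The values they deposited are linear-scale intensities that carry probe-set names of Affymetrix. Which definition file made them is therefore not given in the sources used here, nor are hybridization batches. Per the labels, reverse transcription was primed with oligo(dT). Plastid transcripts mostly lack stable poly(A) tails, and the effect of this on the levels was not tested.

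The probe table lists 13513 of the 22810 probe sets with 1 gene, 503 with several genes and 8730 with no gene, apart from 64 controls. The RefSeq table of TAIR10.1 gave symbols and gene order for 13436 of the first kind. For 146 genes with several probe sets, the brightest on average was used. After log2, genes below 6 on average in every genotype were dropped. Genotype means were fitted over all arrays (limma 3.58.1 under R 4.3.3, lmFit followed by eBayes, 8 residual degrees of freedom), with Benjamini-Hochberg adjustment over the genes kept and a threshold of 0.05. Median intensity ranged from 76.11 to 86.82 between arrays, and precision is limited by the number of arrays. In replicate pairs 1.32% to 3.98% of values were equal, so no array was a copy. The arrays of a genotype are called biological replicates in the labels. The procedure was tested on simulated data. Figures were drawn with matplotlib 3.10.9.

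The polymerase genes, the gene lists and the comparisons were chosen with earlier results of these data known. The rule for named genes took the 3 polymerase genes, rpoA, the genes that follow rpoC2, all tested genes of the lists of polymerases, sigma factors, associated proteins and editing factors, the 2 largest and 2 smallest differences of the larger organelle lists, and the 10 genes most correlated with the mean of the 3. psbM and petN, and the remarks on AT2G36885 and AT4G26600, were chosen after values had been seen. As alternatives, the filter was omitted, raised to 7 or applied to the genotypes compared, limma was run on the 6 arrays compared, the methods' t-test was run with and without adjustment, arrays were centred on their medians or quantile normalized, the replicate number entered as a block, eBayes was given a trend, probe sets of a gene were averaged, and each array was left out. A fit over all probe sets other than controls was added after seeing the data.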

Additional observations from a re-analysis of the deposited data

How the results depend on the processing

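In noa1-2 the rises of rpoB, rpoC1 and rpoC2 kept their direction and call in every alternative run, with differences of 1.53 to 1.76, 1.37 to 1.57 and 1.40 to 1.75, and so did those of rpoC1 (1.06 to 1.27) and rpoC2 (1.20 to 1.47) in nia1nia2noa1-2. rpoB in nia1nia2noa1-2 missed the threshold without a filter on dim genes (difference 1.01, limma, adjusted p = 0.0783), where more genes are tested. It also missed it in 9 of the 12 fits that left out 1 array (0.90 to 1.13). With limma on only the 6 arrays compared it passed (adjusted p = 0.000258). For nia1nia2 minus Col-0, leaving out 1 array gave -0.11 to 0.83 for rpoB, -0.27 to 0.27 for rpoC1 and -0.005 to 0.57 for rpoC2, with 0 to 1 of the 3 called, and -0.24 to 0.47 for the mean of the 3 relative to the other plastid-encoded genes.

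The deviations of same-numbered arrays from their genotype means correlated at r from -0.11 to 0.28 (15 pairs, 4 over 0.1). Those of arrays with different numbers correlated at r from -0.35 to 0.36 (39 pairs, 10 over 0.1). With so few arrays per genotype these values cannot settle whether the numbers pair the samples. With the replicate number as a block, the difference of nia1nia2 from Col-0 was -0.12 for rpoB and -0.024 for rpoC2, and 1 of the 3 genes was called between nia1nia2noa1-2 and noa1-2, against 0 without it. Number 4 occurs only in nia1nia2, so the block takes that array out of the comparison.

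Between nia1nia2noa1-2 and nia1nia2, where 2 of the 3 were called, limma on the 6 arrays called 0, the methods' t-test 0 after adjustment and 1 before, and the fits leaving out an array 1 to 3. Between nia1nia2noa1-2 and noa1-2, where 0 were called, the same analyses called 2, 1 and 2, and the fits leaving out an array 0 to 1. Between nia1nia2 and noa1-2, where 3 were called, the adjusted t-test called 0. For the departure from additivity, leaving out an array gave 0 to 1. The causes were not tested.

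Counts over all genes, in either direction, moved more. In nia1nia2noa1-2 minus Col-0 they were 1542 in the fit reported, 843 to 2337 leaving out an array, 2539 on 6 arrays, 2759 by the unadjusted t-test, 2328 with the block and 3123 over all probe sets. In noa1-2 minus Col-0 the same counts were 639, 268 to 1216, 1643, 2185, 1199 and 1275, and the adjusted t-test gave 361. In nia1nia2 minus Col-0 they were 3022, 897 by the adjusted t-test and 5893 over all probe sets. For nia1nia2 minus noa1-2 these were 3027, 1162 and 5892. Between nia1nia2noa1-2 and nia1nia2 they were 1066, 476 to 1903 leaving out an array, 100 on 6 arrays, 1 by the adjusted t-test, 1685 with the block and 2088 over all probe sets. Between nia1nia2noa1-2 and noa1-2 they were 1306, 795 to 1948, 2246 on 6 arrays, 2578 by the unadjusted t-test, 1961 with the block and 2619 over all probe sets. For the departure they were 244, 75 to 839, 403 after median centring, 626 with the block and 607 over all probe sets.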
